A study of Mus musculus with 8 samples.

Results

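Hepatocytes at the portal side of the liver lobule carry their own set of transcripts. Described here are 8 genes of that set that lie outside nitrogen metabolism, in male mouse liver labelled WT or HNF6KO. The genes are Cyp2f2, Hsd17b13, Cdh1, Pigr, Ctsc, Etnppl, Aldh1b1 and Serpina12. They were taken by name, as genes known for periportal expression, and no value in these samples entered the rule, although earlier results of these data were known when they were chosen. Each was measured by 1 probe set, so 8 of the 19540 genes in the deposited table are members, and the choice among several probe sets did not arise for any of them. None of the 8 passed the test across all genes. Aldh1b1 was higher on all 4 HNF6KO arrays than on any WT array. Such a separation, in either direction, was seen for 5.67% of all genes. Etnppl was higher than all WT arrays on 3 of 4 HNF6KO arrays, and Cyp2f2 and Cdh1 were lower on 3 of 4. The share of all genes with 3 of 4 was not computed.

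The series holds 4 Affymetrix arrays labelled WT and 4 labelled HNF6KO. All 8 are liver total RNA of male mice aged 12 weeks, of strain C57B/6 by the labels, fed normal chow and given no specific treatment. All were taken at ZT10, which the study gives as 5 pm, so nothing here bears on other times of day. HNF6, also called Onecut1, is a liver transcription factor of the homeodomain class. The sources used here do not state what drives the depletion, in which cells it acts, or whether the WT mice carry any part of that system. Nor do they say whether arrays stand for separate animals, so p-values measure the spread between these samples only.

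Blood enters the liver lobule at the portal tract and leaves at the central vein, and hepatocytes along that path divide their work. Periportal cells see the most oxygen and are known for ureagenesis, gluconeogenesis and secretion of plasma proteins, while pericentral cells, under Wnt signals from the central vein, make glutamine and carry much of the drug-metabolising P450 load. In whole liver, fewer periportal cells and less of a transcript per periportal cell cannot be told apart. The values are read as log2 expression, a scale on which a difference of 1 is a doubling. Levels of different probe sets are not comparable, so each gene is compared with itself between the groups.

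The targeted transcript and the tissue were checked first. Onecut1 was lower on each HNF6KO array than on any WT array, with a log2 change (HNF6KO minus WT) of -1.32 ± 0.18 (SE, limma, adjusted p = 0.0273). Its mean was 10.25 in WT and 8.93 in HNF6KO, still above the median of all gene means (6.97), so the signal was reduced but not absent. That call was lost when 1 of 5 arrays was left out (WT array 1, 3 or 4, or HNF6KO array 3 or 4, with adjusted p from 0.0633 to 0.0954). Within arrays 1 and 2 the Onecut1 change was -0.83 (adjusted p = 0.171), and within arrays 3 and 4 it was -1.80 (adjusted p = 0.00140). The 8 hepatocyte markers had a mean log2 level of 13.0 to 13.2 in WT and 13.1 to 13.2 in HNF6KO. The highest value on an array was 13.96 to 14.11, and whether levels so near it can show a difference was not tested. Array medians ran from 6.89 to 6.97 and the correlation between any 2 arrays from 0.987 to 0.997. The labels give no batch. A term for arrays 1 and 2 against arrays 3 and 4, a split known from an earlier look at these data, moved the count of genes past the test from 78 to 245, so values within each pair of array numbers are given beside the members' results.

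The 250 bases before the annotated start of transcription were read from RefSeq (GRCm38.p6) for 7 of the 8 genes, Etnppl with more than 1 start, and Cdh1 is named only. They were searched on both strands for ATTGAT and ATCGAT, cores that HNF6 is known to bind, for AGGTCA, the half-site of nuclear receptors such as REV-ERB, and for CACGTG, the E-box of the clock activators. The first 2 words were in none of the 8 windows of these genes, against 6.72% and 0.728% of all 32851 windows. AGGTCA was in 2 windows, those of Cyp2f2 and Hsd17b13, against 14.0% of all windows, and CACGTG was in 1, that of Pigr, against 6.02%. No member's window held more than 1 match, so none overlapped. 4 windows are shown, those of the 3 genes with a match, which is in capitals, and that of Aldh1b1, the gene with the largest difference. A match is only a run of letters, and an absent word says nothing about binding elsewhere.
Aldh1b1: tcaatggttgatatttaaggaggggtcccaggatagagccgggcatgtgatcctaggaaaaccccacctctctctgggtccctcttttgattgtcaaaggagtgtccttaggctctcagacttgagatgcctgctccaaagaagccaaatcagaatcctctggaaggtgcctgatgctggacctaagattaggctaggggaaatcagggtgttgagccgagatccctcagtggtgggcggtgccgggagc
Cyp2f2: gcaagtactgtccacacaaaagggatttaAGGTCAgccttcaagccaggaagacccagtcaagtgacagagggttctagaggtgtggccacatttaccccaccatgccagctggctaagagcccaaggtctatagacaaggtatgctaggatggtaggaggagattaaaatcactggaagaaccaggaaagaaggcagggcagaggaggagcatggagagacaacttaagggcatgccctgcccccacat
Hsd17b13: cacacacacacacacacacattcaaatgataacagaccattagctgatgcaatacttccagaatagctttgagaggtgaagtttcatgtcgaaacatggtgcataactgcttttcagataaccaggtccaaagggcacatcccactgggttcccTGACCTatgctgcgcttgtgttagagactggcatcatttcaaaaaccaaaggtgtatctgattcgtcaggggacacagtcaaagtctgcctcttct
Pigr: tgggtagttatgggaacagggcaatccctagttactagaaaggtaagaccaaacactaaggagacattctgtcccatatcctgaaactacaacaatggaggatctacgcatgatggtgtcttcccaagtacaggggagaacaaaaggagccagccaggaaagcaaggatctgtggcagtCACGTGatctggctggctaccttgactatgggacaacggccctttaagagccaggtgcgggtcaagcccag
The windows are chr4:45798772-45799021 (plus strand) for Aldh1b1, chr7:27119705-27119954 (plus) for Cyp2f2, chr5:103977389-103977638 (minus) for Hsd17b13 and chr1:130826434-130826683 (plus) for Pigr, each read 5′ to 3′ along its gene. The capitals in Cyp2f2 begin 221 bases before the start, those in Hsd17b13, where the half-site is on the opposite strand, 96 bases before it, and those in Pigr 71 bases before it.

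Members with a metabolic role had changes of either sign, and none passed the test. Aldh1b1 (Entrez 72535) encodes a mitochondrial aldehyde dehydrogenase that oxidises acetaldehyde and other aldehydes. In array order, 1 to 4, the WT values (log2) were 8.64, 8.62, 8.72 and 8.86 and the HNF6KO values 9.20, 9.98, 9.09 and 9.17; the same order is kept for the genes that follow. Every HNF6KO array lay above every WT array, and HNF6KO array 2 lay far above the other 3 of its group. The means were 8.71 ± 0.11 in WT and 9.36 ± 0.41 in HNF6KO (SD, n = 4 arrays each). The log2 change was 0.65 ± 0.18 (SE), or 1.57-fold, with a 95% interval from 0.25 to 1.05, and it did not pass over all genes (limma, adjusted p = 0.242). Without HNF6KO array 2 the change was 0.45 with an adjusted p of 0.0569, the nearest to the threshold that any of these genes came. Over its 19 alternative fits the adjusted p of Aldh1b1 ran from 0.0569 to 0.543, and its change was 0.96 from arrays 1 and 2 alone and 0.34 from arrays 3 and 4.

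Etnppl (Entrez 71760) encodes the phospho-lyase that splits phosphoethanolamine into acetaldehyde, ammonia and phosphate. WT arrays gave log2 values of 10.93, 10.76, 11.28 and 10.60, and HNF6KO arrays 10.95, 11.59, 11.57 and 11.58. Arrays 2 to 4 of HNF6KO lay close together above all WT arrays, and HNF6KO array 1 lay inside the WT range. Etnppl differed by 0.53 ± 0.18 (SE) in log2, or 1.44-fold, with a 95% interval from 0.12 to 0.93 (limma, adjusted p = 0.362). The pair of arrays 1 and 2 alone gave 0.42 and the pair 3 and 4 gave 0.63, and without HNF6KO array 1 it was 0.69 (adjusted p = 0.105; the range over the alternatives was 0.0777 to 0.678). Acetaldehyde is a product of the reaction Etnppl catalyses and a substrate of the enzyme Aldh1b1 encodes.

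Cyp2f2 (Entrez 13107) encodes a P450 known for bioactivating naphthalene in lung club cells, and it is one of the standard periportal markers of mouse liver. On the log2 scale it read 13.45, 13.38, 13.56 and 13.48 in WT and 13.18, 12.88, 13.23 and 13.46 in HNF6KO. HNF6KO arrays 1 to 3 lay below all WT arrays and array 4 lay inside the WT range. Cyp2f2 had a change of -0.28 ± 0.11 (SE, log2), with a 95% interval from -0.53 to -0.03 (limma, adjusted p = 0.450). Without HNF6KO array 2, the lowest, the change was -0.18 (adjusted p = 0.556; range over the alternatives 0.178 to 0.670). Arrays 1 and 2 alone gave -0.38, and arrays 3 and 4 gave -0.18.

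Hsd17b13 (Entrez 243168) encodes a lipid droplet protein of hepatocytes with retinol dehydrogenase activity, a gene linked in people to the course of fatty liver disease. Its log2 values were 12.49, 12.41, 12.69 and 12.47 in WT and 12.33, 12.36, 12.59 and 12.56 in HNF6KO, and the groups overlapped. The log2 change was -0.05 ± 0.08 (SE), and its 95% interval ran from -0.24 to 0.14 (limma, adjusted p = 0.913). Arrays 1 and 2 alone gave -0.10, and arrays 3 and 4 gave -0.00247. The sign of the change turned in 2 of the 19 alternatives.

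**Figure D1:**
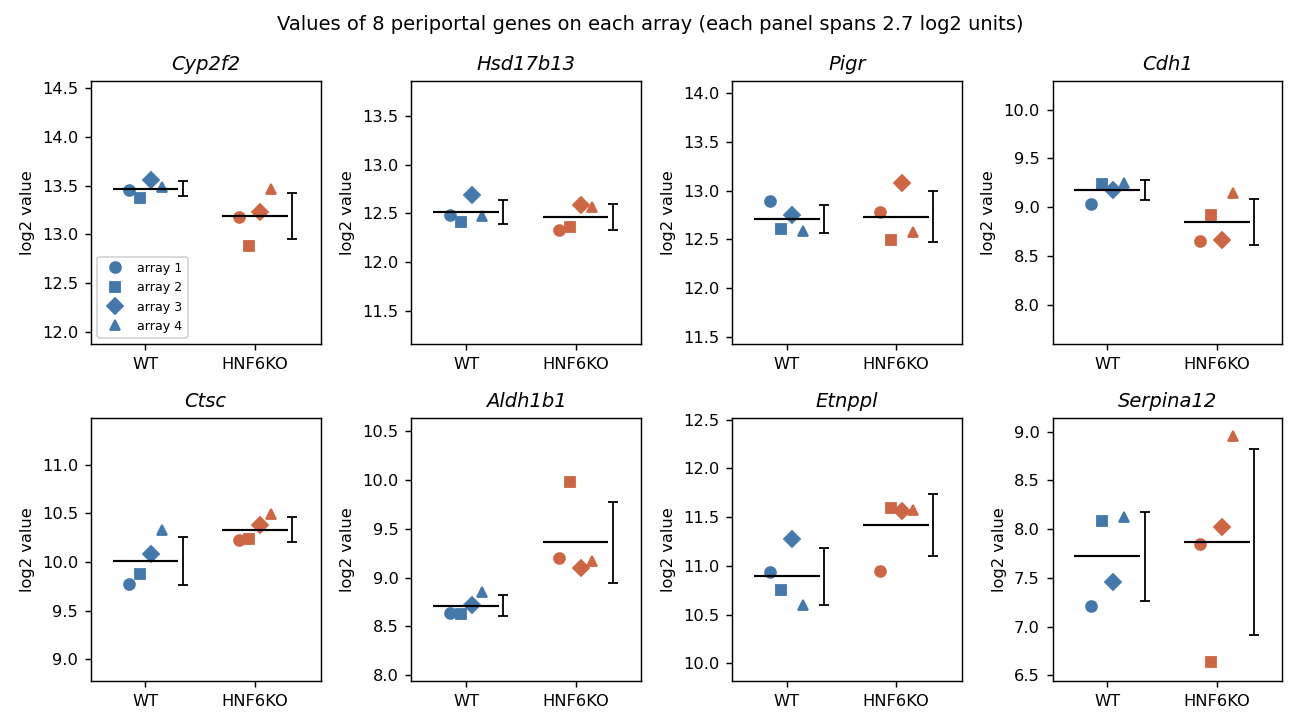
Log2 value (vertical axis) of each of the 8 genes on the 4 WT arrays (blue) and the 4 HNF6KO arrays (orange), 1 marker shape per array number; horizontal lines are group means and side bars the SD, and every panel spans the same number of log2 units. Aldh1b1 is the gene whose groups do not overlap (8.62 to 8.86 in WT against 9.09 to 9.98 in HNF6KO), and Serpina12 has the widest spread (6.63 to 8.95 in HNF6KO).

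Members at the cell surface and in the secretory and lysosomal routes also had changes of either sign, and none passed the test. Cdh1 (Entrez 12550) encodes E-cadherin, the adhesion molecule of epithelial junctions, which in liver marks periportal hepatocytes and bile ducts. On the arrays Cdh1 read, in log2, 9.04, 9.24, 9.18 and 9.25 in WT and 8.66, 8.92, 8.66 and 9.14 in HNF6KO. HNF6KO arrays 1 to 3 lay below all WT arrays, and HNF6KO array 4 lay inside the WT range. For Cdh1 the change was -0.33 ± 0.11 (SE, log2), with a 95% interval from -0.58 to -0.08 (limma, adjusted p = 0.351; range over the alternatives 0.130 to 0.670). It was close to the same within arrays 1 and 2 (-0.35) and within arrays 3 and 4 (-0.31).

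Pigr (Entrez 18703) encodes the polymeric immunoglobulin receptor, which carries IgA across epithelia and, in rodents, across hepatocytes into bile. Its log2 values were 12.89, 12.61, 12.75 and 12.58 in WT and 12.79, 12.50, 13.08 and 12.57 in HNF6KO, with the highest and the lowest array both in HNF6KO. For Pigr the change was 0.02 ± 0.13 (SE, log2), with a 95% interval from -0.26 to 0.31 (limma, adjusted p = 0.980). The sign differed between arrays 1 and 2 alone (-0.11) and arrays 3 and 4 (0.15). Bile duct cells also make Cdh1 and Pigr. The mean log2 level of 6 measured biliary markers was 5.89 to 5.91 on the WT and 5.86 to 5.96 on the HNF6KO arrays, with a median log2 change of 0.02 and 0 of 6 past the test. Of these 6, 5 had a mean below the median of gene means (6.97). At such low levels their values cannot show whether bile duct cells changed. The part of bile duct cells in the Cdh1 and Pigr values was not tested.

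Ctsc (Entrez 13032) encodes cathepsin C, the lysosomal dipeptidyl peptidase that activates granule proteases in leukocytes. Ctsc values (log2) were 9.77, 9.88, 10.08 and 10.33 in WT and 10.22, 10.23, 10.38 and 10.49 in HNF6KO. WT array 4 reached into the HNF6KO range and the other 3 WT arrays lay below it. The log2 change was 0.32 ± 0.12 (SE), with a 95% interval from 0.05 to 0.59 (limma, adjusted p = 0.428; range over the alternatives 0.0784 to 0.747). Arrays 1 and 2 alone gave 0.40, and arrays 3 and 4 gave 0.23. Macrophages express Ctsc as well, and the mean log2 level of 9 Kupffer markers was 7.74, 8.61, 8.85 and 9.03 in WT and 8.33, 7.80, 9.44 and 9.17 in HNF6KO. All 9 had a change above 0, from 0.05 to 0.26, each smaller than its SE (0.16 to 0.68), and 0 passed the test. Markers read on the same arrays are not independent, so the count of 9 adds little. The 4 WT arrays stood in the same order by Kupffer level as by Ctsc, and the 4 HNF6KO arrays did not. For 7 measured lymphocyte and plasma cell markers the mean level was 5.87 to 5.92 in WT and 5.85 to 6.01 in HNF6KO (median change 0.01), and for 5 neutrophil markers it was 5.53 to 5.64 and 5.47 to 5.70 (median change -0.01), with 0 past the test in either list. In these 2 lists 5 of 7 and 5 of 5 markers lay below the median of gene means (6.97), and values so low cannot show whether those cells changed. Above it lay Ptprc (log2 change 0.26 ± 0.22, SE) and Cd3e (0.00383 ± 0.06). Cd3g, among the low ones, had 0.26 ± 0.11 (limma, adjusted p = 0.482). Of 6 sinusoidal endothelium markers all had a change above 0 (median 0.20, SE of 0.16 to 0.34) and 0 passed. Their mean levels were 8.18 to 9.03 in WT and 8.28 to 9.18 in HNF6KO. For 6 stellate cell markers the median was 0.06, with mean levels of 8.34 to 8.82 and 8.37 to 8.85, and 0 passed. The part of these cells in the Ctsc values was not tested.

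Serpina12 (Entrez 68054) encodes vaspin, a secreted serine protease inhibitor studied mostly in adipose tissue and insulin sensitivity. Vaspin transcript levels (log2) were 7.21, 8.09, 7.46 and 8.13 in WT and 7.85, 6.63, 8.03 and 8.95 in HNF6KO. HNF6KO held both the lowest and the highest value of the 8. The log2 change was 0.15 ± 0.43 (SE), with a 95% interval from -0.84 to 1.13 (limma, adjusted p = 0.963). Arrays 1 and 2 alone gave -0.40, and arrays 3 and 4 gave 0.69.

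Across the 8 genes, 0 passed an adjusted p of 0.05 in limma, where 0.399% of all genes did (78 of 19540). At an unadjusted p of 0.05 there were 5, against 9.51% of all genes. These were Ctsc, Etnppl and Aldh1b1 on the higher side (3, against 4.3% of all genes) and Cyp2f2 and Cdh1 on the lower (2, against 5.21%). Groups that did not overlap were seen for 1 of the 8, against 5.67% of all genes. The median log2 change was 0.08, beside -0.01 over all genes. Arrays 1 and 2 alone gave a median of -0.10, and arrays 3 and 4 one of 0.19. It was 0.23 with array weights, 0.23 without HNF6KO array 2, 0.000973 without HNF6KO array 3, -0.00411 without HNF6KO array 4, 0.0294 without WT array 1 and 0.0488 without WT array 3, and 0.13 without either WT array 2 or WT array 4. The changes ran from -0.33 to 0.65, while 80% of all genes lay between -0.14 and 0.13. The median size of the change, without its sign, was 0.30 for the 8 genes and 0.06 over all genes. All 8 genes had mean levels above the median of gene means (6.97), the lowest at 7.79. These contrasts with all genes were not matched for level. No common direction was seen, with 5 of 8 changes above 0 and 3 below.

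**Figure D2:**
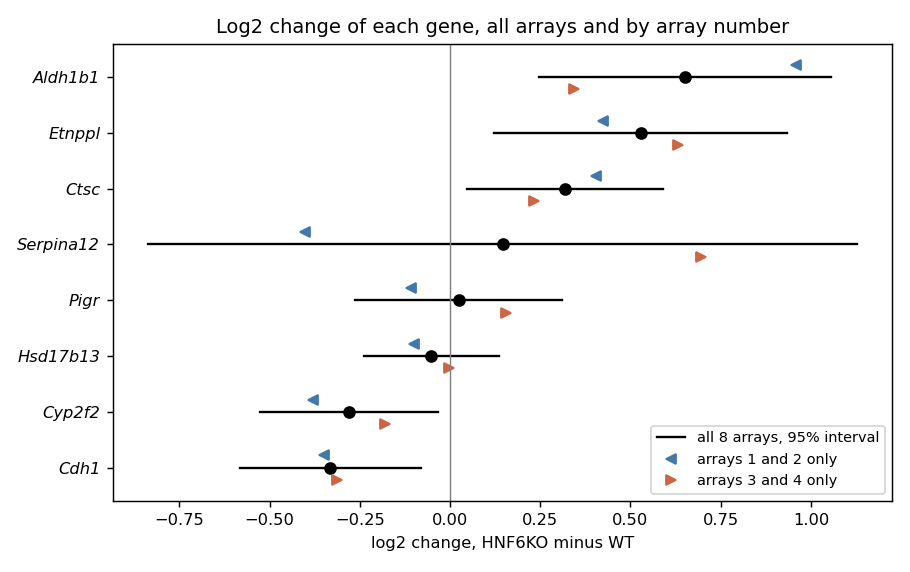
Log2 change (HNF6KO minus WT, horizontal axis) of each of the 8 genes over all 8 arrays (black point with its 95% interval) and within arrays numbered 1 and 2 (left-pointing triangles) or 3 and 4 (right-pointing triangles). Aldh1b1, Etnppl and Ctsc lie above 0 and Cyp2f2 and Cdh1 below 0 in both pairs of array numbers, while Serpina12 (-0.40 and 0.69) and Pigr (-0.11 and 0.15) change sign between them.

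The members also differed among themselves in how they varied within a group. Over the 8 arrays, taken as deviations from each group's mean, Pearson's r between members ran from -0.80 for Cdh1 with Pigr (Spearman rho -0.86) to 0.80 for Cyp2f2 with Serpina12 (rho 0.55), among 28 pairs. Cyp2f2 and Aldh1b1 had r = -0.74 (rho -0.48), with HNF6KO array 2 lowest for the first and highest for the second. These values rest on the same 8 arrays and are descriptions. By the same measure on the undivided log2 values, the genes most like Ctsc were Gldc, the glycine decarboxylase (r = 0.97, rho 0.93), and Apip, an enzyme of methionine salvage (r = 0.97, rho 0.93). Those most like Aldh1b1 were Mrpl46, a mitochondrial ribosome protein (r = 0.97, rho 1.0), and Mmd2 (r = 0.97, rho 0.90), and those most like Cyp2f2 were Glyat, the glycine acyltransferase (r = 0.98, rho 0.86), and Arsb, a lysosomal sulfatase (r = 0.98, rho 0.95). For Etnppl they were Zfp939 (r = 0.95, rho 0.98) and Ppat, the first enzyme of purine synthesis (r = 0.95, rho 0.95). For Cdh1 they were Sprr2i (r = 0.98, rho 0.90) and Zfp592 (r = 0.94, rho 0.90). For Hsd17b13 they were Trmt1 and Cldnd1 (both r = 0.98, rho 0.98), for Pigr Plekhm3 (r = 0.92, rho 0.86) and Cct6b (r = 0.91, rho 0.79), and for Serpina12 Hsd17b12 (r = 0.97, rho 0.93) and Cog4 (r = 0.97, rho 0.93). None of these 16 genes passed the test, and each was picked as the top of a search over all genes in 8 arrays.

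Other zonated genes give the setting. Of 10 periportal genes of nitrogen metabolism 7 were measured, of which Prodh rose (proline dehydrogenase; log2 change 0.57 ± 0.08, limma, adjusted p = 0.0276), 0 fell and 6 did not pass. The list's median log2 change was 0.14, with 6 of 7 changes above 0, and the call of Prodh was lost without any 1 of WT arrays 1, 2 and 3 and HNF6KO arrays 3 and 4 (adjusted p from 0.0645 to 0.110), and within either pair of array numbers (0.153 and 0.0865). Hal, named after its values were seen, had a log2 change of 0.31 ± 0.05 (adjusted p = 0.0536) with groups that did not overlap. Gls2, Sds and Ass1 were not analysed here. Of 9 other periportal genes 8 were measured, of which the complement component C2 rose (0.38 ± 0.06, adjusted p = 0.0404), 0 fell and 7 did not pass, with a median of 0.08. C2 lost its call after median centring (adjusted p = 0.0556), with an intensity trend and robust variances (0.0760), with the replicate block (0.0660), within either pair of array numbers (0.315 and 0.112), and without any 1 array other than HNF6KO array 1 (0.0824 to 0.136). Its log2 values ran from 9.69 to 9.85 in WT and from 10.06 to 10.24 in HNF6KO.

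At the other pole, 0 of 18 pericentral genes passed, 6 changes lay above 0 and 12 below, and the median was -0.12. Lect2, a hepatocyte-secreted chemotactic factor, showed a log2 change of 0.53 ± 0.12 (adjusted p = 0.152), and Znrf3, a ubiquitin ligase that dampens Wnt signalling, one of -0.23 ± 0.09 (adjusted p = 0.429). Lect2 passed without HNF6KO array 2 (0.66, adjusted p = 0.00391), with array weights (0.0264) and within arrays 3 and 4 (0.0432), and over all its alternatives the adjusted p ran up to 0.577. The mean log2 level of the pericentral list was 10.7 to 10.8 on the WT arrays and 10.4 to 10.8 on the HNF6KO arrays, and HNF6KO array 2 was the lowest of the 8. None of 4 midlobular genes passed (median -0.03). Hamp2 stood at a log2 change of 0.56 ± 0.31 (adjusted p = 0.643) and Igfbp2, a binding protein of insulin-like growth factors, one of -0.19 ± 0.11 (adjusted p = 0.678). The lists were not compared with each other by a test.

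**Figure D3:**
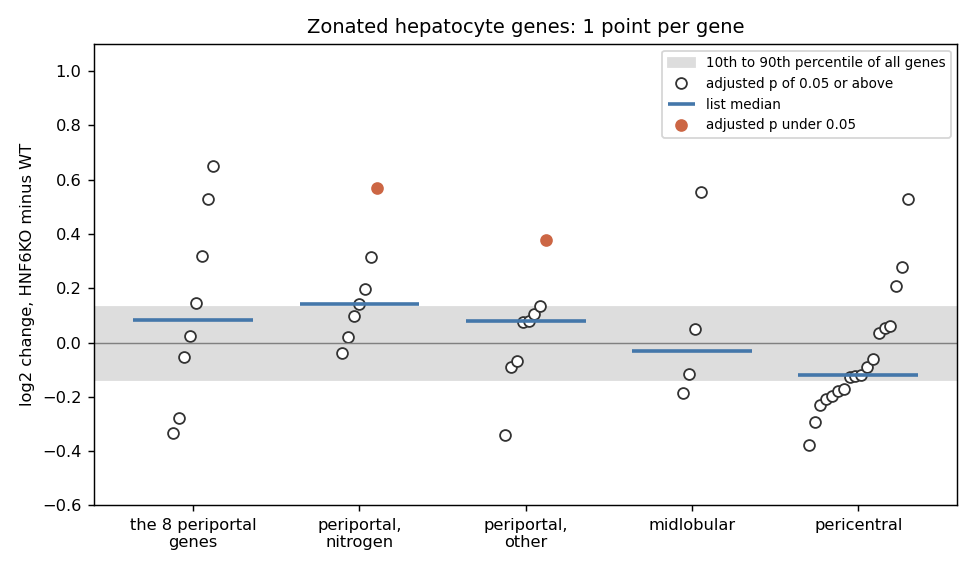
Log2 change (HNF6KO minus WT, vertical axis) of each measured gene in 5 lists of zonated hepatocyte genes; filled points passed an adjusted p of 0.05, blue lines are list medians and the grey band holds the 10th to 90th percentile of all genes. The 8 periportal genes spread on both sides of the band (-0.33 to 0.65) with a median of 0.08, and the filled points are Prodh and C2. The band covers all genes and was not matched for level.

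The enzyme and protein families of the members held few calls. Of 17 other aldehyde dehydrogenases 0 passed (median 0.02). At an unadjusted p of 0.05, 4 were higher and 0 lower, where 4.3% and 5.21% of all genes were. Among them Aldh1l1, the folate enzyme that oxidises formyl-tetrahydrofolate, showed a log2 change of 0.38 ± 0.06 (adjusted p = 0.0536) with groups that did not overlap, and Aldh1a7 had one of 0.34 ± 0.11 (adjusted p = 0.338). Aldh1l1 passed with the term for array numbers (adjusted p = 0.0322), with median centring (0.0352) and with array weights (0.0264), and over all its alternatives the adjusted p ran up to 0.201. At the same unadjusted p, 0 of 9 ethanolamine phosphate genes were higher and 3 lower, and of 13 cathepsins 2 and 3. For 10 hydroxysteroid dehydrogenases the counts were 0 and 1, for 8 junction partners 0 and 2, and for 10 serpins 1 and 1. For the 8 CYP2 genes near Cyp2f2 they were 2 and 2, and for 7 periportal nitrogen genes 3 and 0. Of 9 measured genes of ethanolamine phosphate metabolism around Etnppl 0 passed, and the median was -0.16. The kinase Etnk1, which makes phosphoethanolamine, showed a log2 change of -0.32 ± 0.10 (adjusted p = 0.300), and Selenoi, which builds phosphatidylethanolamine, one of -0.30 ± 0.10 (adjusted p = 0.344), both with groups that did not overlap. Etnk2 and Chkb were not analysed here.

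Of 13 other cathepsins 0 passed, with 9 changes above 0 and a median of 0.09. The aspartic protease Ctse showed a log2 change of -1.15 ± 0.27 (adjusted p = 0.162), opposite in sign to Ctsc, and its groups did not overlap (8.28 to 9.49 in WT and 7.24 to 8.14 in HNF6KO). Ctso had one of 0.20 ± 0.07 (adjusted p = 0.409). Of 10 other members of the hydroxysteroid dehydrogenase family of Hsd17b13 0 passed (median 0.02), with Hsd17b2 at -0.33 ± 0.11 (adjusted p = 0.339) and Hsd17b11, its closest relative on lipid droplets, at 0.22 ± 0.12 (adjusted p = 0.635). Of 8 junction partners of E-cadherin 0 passed (median 0.02). Afdn, the afadin scaffold, showed a log2 change of -0.18 ± 0.07 (adjusted p = 0.427), and Cdh2, the N-cadherin of hepatocytes, one of -0.15 ± 0.06 (adjusted p = 0.495). Of 10 measured clade A serpins 0 passed (median -0.05). Serpina6, the plasma carrier of corticosteroids, showed a log2 change of 0.50 ± 0.13 (adjusted p = 0.207) and Serpina7, the carrier of thyroxine, one of -0.87 ± 0.33 (adjusted p = 0.434).

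The genes beside each member on the chromosome were also looked up, a step added after the data were seen. Of the 48 nearest measured protein-coding genes, 3 on each side of each member, 0 passed in limma and 5 had an unadjusted p under 0.05, a share near the 9.51% of all genes. Their median log2 change was -0.02. Aldh1b1, Etnppl and Ctsc, the members with changes above 0.3, had neighbours from -0.15 to 0.20, from -0.33 to 0.16 and from -0.42 to 0.11. Cyp2f2 lies in a cluster of CYP2 genes on chromosome 7. Its neighbour Cyp2a12 showed a log2 change of -0.23 ± 0.07 (adjusted p = 0.291) and Cyp2g1 one of -0.12 ± 0.05 (adjusted p = 0.510). Of the 8 measured P450s of that cluster 1 rose, 0 fell and 7 did not pass. The riser was Cyp2b9, a P450 higher in female than in male mouse liver, with a log2 change of 5.65 ± 0.28 (adjusted p = 1.35e-04). Its relatives Cyp2b13 and Cyp2b10, named after their values were seen, showed changes of 4.03 ± 0.78 (adjusted p = 0.0878, groups apart) and 1.25 ± 0.58 (adjusted p = 0.548). Whether transcripts of these relatives share signal between the probe sets was not tested.

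**Figure D4:**
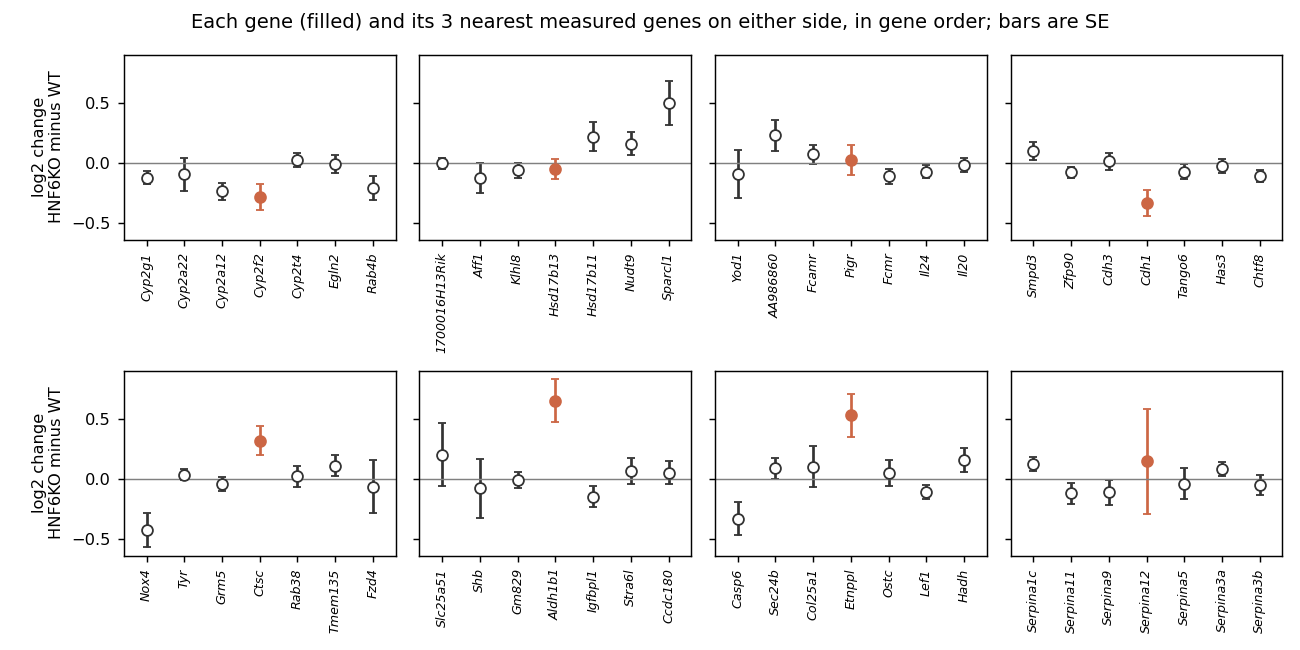
Log2 change with its SE (vertical axis) of each member (filled) and the 3 nearest measured protein-coding genes on either side in gene order (open; distances are not drawn). The changes of Aldh1b1 (0.65), Etnppl (0.53) and Ctsc (0.32) stand above those of all 6 neighbours of each gene. These 3 are the members with the largest rises, and none passed the test. Some neighbours read at low levels, such as Tyr beside Ctsc (WT mean 4.73) and Gm829 beside Aldh1b1 (5.10).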

How the data were processed

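The authors deposited 1 table with a value per probe set and array, read as log2 from its range. How arrays were background-corrected, normalized and summarised is not stated in the sources used here. Of 22725 probe sets, 21113 had 1 gene symbol in the platform annotation, 43 several and 1569 none here. The brightest probe set by mean over the 8 arrays stood for a gene, which left 19540 genes. The groups were fitted with limma 3.58.1 (lmFit and eBayes, under R 4.3.3), and p-values were adjusted by Benjamini-Hochberg over all genes, with a threshold of 0.05. SE and 95% intervals are the moderated ones, and the intervals are not adjusted. No value was filtered. The step was tested on simulated data, with changes planted in randomly chosen genes, each with its own spread. Of log2 changes of 0.5, 66% were recovered, and of changes of 1, 94%, while 11 of 19340 unchanged genes were called. These shares run over genes of every spread. They do not give the chance of finding a change in a given member, such as Etnppl or Aldh1b1 (SE 0.18 each) or Serpina12 (0.43). Smaller changes, such as those of Cyp2f2, Cdh1 and Ctsc, were not simulated, so a gene that did not pass may still differ. The number of arrays limits the precision.

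The members, the 11 gene lists and the 7 marker lists were chosen with earlier results of these data known. The rule for named genes took Onecut1, all members, from each list the genes past the threshold or else the 2 with the smallest p, and the 2 genes most like each member. Symbols missing from the table were looked up by older names. Alternatives were other normalizations, a filter, variance models, array weights, probe set means, thresholds, the array number as a block or a split, and each array left out. Promoter sequences are RefSeq's (GRCm38.p6), which need not be the build of the probe annotation.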

Additional observations from a re-analysis of the deposited data

Results flagged for a closer look

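Among the 16 sets of 4 values (8 genes in 2 groups), 2 held a sample far from the other 3 by Dixon's ratio of gap to range at its 95% critical value. Chance flags about 1 in 20 such sets. Etnppl was 10.95 on HNF6KO array 1, while the next value of that group was 11.57 (ratio 0.956). Aldh1b1 was 9.98 on HNF6KO array 2, while the next value was 9.20 (ratio 0.879). Both arrays belong to the pair numbered 1 and 2.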

How the results depend on the processing

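No member passed an adjusted p of 0.05 under any of the 19 alternative fits or at thresholds of 0.1 and 0.01. The direction was the same in all 19 fits for Aldh1b1, Etnppl, Ctsc, Cdh1 and Cyp2f2. Part of that was fixed in advance. The filter, the variance model, the probe set mean and the array number as block or split return the main log2 change for these genes. For Aldh1b1, whose groups did not overlap, leaving arrays out could not turn the sign either. The causes of the following differences were not tested. The change of Hsd17b13 was 0.0300 with array weights and -0.0937 to 0.00593 when single arrays were left out. That of Pigr was -0.11 within arrays 1 and 2 and -0.0909 to 0.10 with single arrays left out, and that of Serpina12 was -0.40 and -0.22 to 0.56. The members' median was -0.10 within arrays 1 and 2 and -0.00411 to 0.23 with single arrays left out. The 78 genes called were 202 with array weights, 245 with the split of array numbers as a term (a split known from an earlier look at these data), 22 within arrays 1 and 2, 16 to 79 with single arrays left out, and 162 and 14 at thresholds of 0.1 and 0.01. Array weights were lowest for HNF6KO arrays 1 (0.350) and 2 (0.527).

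With the array number as a replicate block 125 genes and 0 members were called. Deviations of same-numbered arrays correlated at 0.02 to 0.51 across genes and 4 of 8 arrays correlated best with their own number, and since 1 pair lay under 0.1 the numbers were not taken as pairs.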

Other observations

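HNF6KO array 2 stood at the edge for several of the zonated genes. How often each array stood at the edge over all genes was not counted, so these values do not single it out. HNF6KO array 1 had a lower array weight (0.350) than array 2 (0.527). Among the 8 arrays HNF6KO array 2 had the lowest Cyp2f2 (12.88), the lowest Serpina12 (6.63) and the lowest Pigr (12.50), the highest Aldh1b1 (9.98) and Etnppl (11.59), and the lowest mean level of the 18 pericentral genes (10.39). The Pigr and Etnppl values lay close to those of HNF6KO array 4 (12.57 and 11.58). The mean level of hepatocyte markers on HNF6KO array 2 was 13.11, inside the range of the WT arrays (13.03 to 13.18).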
